A study of Homo sapiens with 12 samples.

Results

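The 58 genes described here encode proteins of the mitotic spindle, the kinetochore and the machinery that takes a cell into and out of mitosis. They were chosen by gene symbol from a list of mitotic genes, and all 58 were found among the 58037 genes of the count table. Every member had counts high enough to be tested in both cell lines.

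RNA-seq was performed on DU-145/tet-MUC1shRNA and LNCaP-AI/tet-MUC1shRNA prostate cancer cells, with 3 vehicle and 3 DOX samples in each line and 12 in all. DU-145 is an androgen-independent prostate cancer line. LNCaP-AI cells were derived by prolonged culture of C4-2B cells, a subline of LNCaP, without androgens. All 4 groups carried a stably integrated shRNA against MUC1 under a doxycycline-inducible promoter, selected with puromycin. The labels give both lines the same phenol red-free medium with charcoal-stripped serum, whereas the study's methods give it for LNCaP-AI cells and describe ordinary serum for DU-145 cells, so the medium of the DU-145 samples is uncertain and the lines may differ in it. The DOX groups received doxycycline at 500 ng/ml for 7 days to induce the shRNA, and the vehicle groups received DMSO. The labels name the vehicle groups shCTL and the DOX groups shMUC1. Cells carrying a control shRNA are not analysed here, and what DOX does by itself cannot be told apart from what MUC1 silencing does.

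As a cell enters mitosis, CDK1 with B-type cyclins drives chromosome condensation and spindle assembly. Kinetochores, built on centromeric chromatin, attach each chromosome to spindle microtubules, and the spindle checkpoint holds back anaphase until all are attached. The RNAs of these proteins are known to rise together late in the cell cycle under the MuvB complex with MYBL2 (B-MYB) and FOXM1, and to be low in cells that are not dividing, which makes them common markers of proliferation in tumours.

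Total counts ranged from 10423437 to 13544153 per DU-145 sample and from 16569613 to 26961777 per LNCaP-AI sample, and the lowest count of any member in a sample was 70 (KIF15 in LNCaP-AI DOX 2). MUC1, the shRNA target, was measured at 5.67, 5.72 and 4.71 CPM (TMM-normalized counts relative to library size) in the DU-145 vehicle samples and at 0.268, 0.222 and 0.253 CPM with DOX, where each sample held 3 counts. In LNCaP-AI cells it was at 1.75, 1.42 and 1.91 CPM with vehicle and 0.342, 0.36 and 0.177 CPM with DOX (log2 fold change -2.50, SE 0.33, adjusted p = 0.0139). Of 4 epithelial markers, all were detected in both lines and all 4 were higher with DOX in DU-145 cells, where their summed level was 826 to 880 CPM with vehicle and 1900 to 2020 CPM with DOX. Their part in the results was not tested. The luminal prostate markers KLK3, KLK2, FOLH1 and HOXB13 were at 0 counts in all DU-145 samples, and KLK3 was at 190.3, 149.8 and 140.0 CPM with vehicle and 353, 444 and 470.1 CPM with DOX in LNCaP-AI cells. The 3 immune markers summed to at most 1.51 CPM, the 3 endothelial markers to at most 9.11 CPM and the 5 fibroblast markers to at most 29.5 CPM in any sample, and none of those tested was called with DOX in either line. PTPRC and CD3E were at 0 counts in all DU-145 samples.

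The LNCaP-AI samples did not divide by treatment alone. The first principal component (PC1), with 82.5% of their variance, separated vehicle 1, DOX 2 and DOX 3 from vehicle 2, vehicle 3 and DOX 1, and the second, with 12.3%, separated vehicle from DOX. Nothing in the labels matches this division and its part in the results was not tested as a cause, so the members' medians and ranges, and some single genes, are also given within each side as differences of log2(CPM + 0.5) with no test. The vehicle 1 side compares vehicle 1 with DOX 2 and DOX 3. MUC1 was at -1.56 on the vehicle 1 side and -1.35 on the other side on this scale, which understates the change of a low gene.

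Promoter sequences are shown because the members are known targets of a shared control that reads a pair of short elements. RefSeq promoter windows on GRCh38.p14, from 250 bases before to 50 after each start, were found for 50 of the 58 members (62 windows). AURKA, BUB3, TTK, CENPM, TPX2, BIRC5, FOXM1 and UBE2C had no entry in the table used. The cell cycle genes homology region (CHR), to which MuvB complexes bind, was searched as TTTGAA, and the NF-Y element as CCAAT, each on both strands. The 100 bases before the start of 11 members follow, 5′ to 3′ on the gene's strand, chosen as examples with the motifs and for the 2 members not called in DU-145 cells, KIF4A and MYBL2. They hold no member of the NDC80 complex, the centromere proteins or cytokinesis, and most were picked because they hold a match. Capitals mark TTTGAA or its reverse complement TTCAAA and CCAAT or its reverse complement ATTGG.
CCNB2: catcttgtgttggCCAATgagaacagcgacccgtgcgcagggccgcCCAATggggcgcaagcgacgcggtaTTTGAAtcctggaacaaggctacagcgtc
PLK1: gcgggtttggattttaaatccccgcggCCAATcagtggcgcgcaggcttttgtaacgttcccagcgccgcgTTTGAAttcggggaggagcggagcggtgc
CDCA8: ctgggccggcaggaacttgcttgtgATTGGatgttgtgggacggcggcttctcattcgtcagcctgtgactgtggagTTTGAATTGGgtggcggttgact
BUB1B: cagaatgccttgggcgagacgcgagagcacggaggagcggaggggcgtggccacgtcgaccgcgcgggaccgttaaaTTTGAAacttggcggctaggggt
ESPL1: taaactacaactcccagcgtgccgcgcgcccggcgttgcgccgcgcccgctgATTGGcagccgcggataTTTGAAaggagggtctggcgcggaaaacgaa
KIF11: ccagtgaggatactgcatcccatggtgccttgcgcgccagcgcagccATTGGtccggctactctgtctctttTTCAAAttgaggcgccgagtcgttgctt
KIF4A: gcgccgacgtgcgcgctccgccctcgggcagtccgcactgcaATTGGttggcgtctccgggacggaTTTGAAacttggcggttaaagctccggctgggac
HMMR: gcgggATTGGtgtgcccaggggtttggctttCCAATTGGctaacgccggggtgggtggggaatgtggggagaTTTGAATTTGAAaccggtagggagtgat
PRC1: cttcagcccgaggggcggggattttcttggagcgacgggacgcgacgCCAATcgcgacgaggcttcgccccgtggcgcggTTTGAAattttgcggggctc
NCAPG: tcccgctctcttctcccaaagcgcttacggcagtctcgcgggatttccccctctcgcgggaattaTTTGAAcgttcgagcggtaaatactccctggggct
MYBL2: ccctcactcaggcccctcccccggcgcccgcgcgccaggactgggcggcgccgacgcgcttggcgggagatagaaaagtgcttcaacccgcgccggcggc

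These stretches lie at chr15:59105046-59105145 (+ strand) for CCNB2, chr16:23678789-23678888 (+ strand) for PLK1, chr1:37692416-37692515 (+ strand) for CDCA8, chr15:40160969-40161068 (+ strand) for BUB1B, chr12:53268199-53268298 (+ strand) for ESPL1 and chr10:92593030-92593129 (+ strand) for KIF11. The others lie at chrX:70290004-70290103 (+ strand) for KIF4A, chr5:163460532-163460631 (+ strand) for HMMR, chr15:90994536-90994635 (- strand) for PRC1, chr4:17810879-17810978 (+ strand) for NCAPG and chr20:43667014-43667113 (+ strand) for MYBL2. In 10 of the 11 a CHR match stood within 35 bases of the start, and in CDCA8 it shared bases with an NF-Y match. HMMR held 2 adjacent CHR matches. BUB1B and NCAPG held no NF-Y match in the 100 bases shown. MYBL2 held neither motif there.

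Over the whole windows, TTTGAA was present in 39 of 62 member windows (62.9%), against 15.2% of all 35116 RefSeq promoter windows of the same length. CCAAT was in 67.7% of member windows and 34.6% of all windows, and both motifs were in 48.4% and 5.9%. Between 50 bases before and 45 after the start, TTTGAA began in 51.6% of member windows and 4.62% of all windows. Windows of 35 genes of replication licensing and synthesis, set beside them, held TTTGAA in 0 of 44 cases and CCAAT in 56.8%. TTTGAA was not confined to the members among mitotic genes. Windows of 88 other genes of mitosis, whose lists are described below, held it in 34 of 112 cases (30.4%). They held CCAAT in 51.8% and both motifs in 18.8%. A match is a description of the letters and not of binding in these cells.

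**Figure D1:**
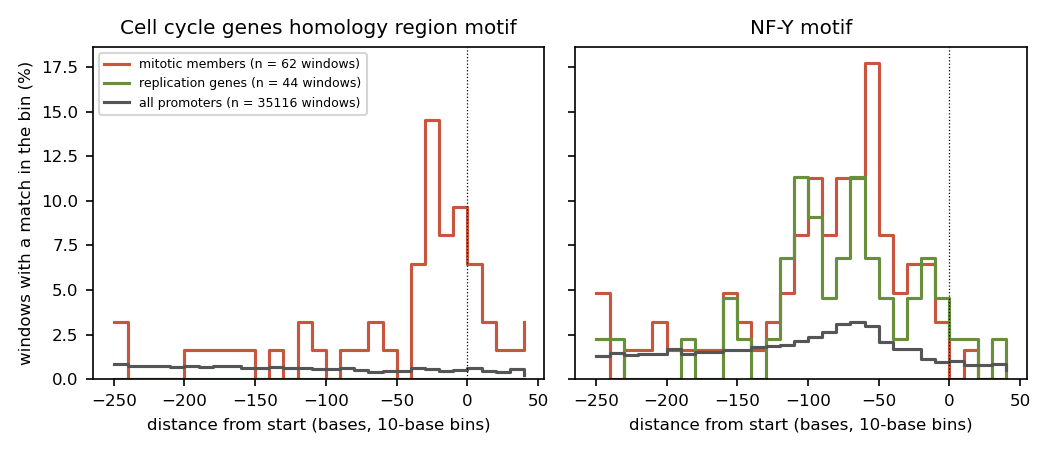
Share of promoter windows (%) with a motif match beginning in each 10-base bin, against distance from the start (bases), for the CHR motif (left) and the NF-Y motif (right). Mitotic members (62 windows) show CHR matches gathered just before the start, whereas replication genes (44 windows) show none and all promoters (35116 windows) stay low throughout.

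In DU-145 cells, 56 of the 58 members were lower with DOX and 0 were higher (edgeR, adjusted p below 0.05). Among all 13644 genes tested in this line, 25.3% were called lower and 26.3% higher. The members' median log2 fold change was -0.55, a level 31.6% below vehicle, with a range from -1.27 for SPC24 to -0.042 for KIF4A, while the median of all genes was 0.001. Every DOX sample lay below every vehicle sample in 56 of 58 members, against 27.7% of all genes. With all 12 samples in the same fit, 35 of the 58 members were called in DU-145 cells. In bulk RNA, fewer dividing cells and less of these RNAs per cell cannot be told apart.

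In LNCaP-AI cells, 39 of 58 members were called lower with DOX and 0 higher, and all 58 had a negative log2 fold change. Calls over all 16030 genes tested came to 5.52% lower and 7.22% higher. The members' median log2 fold change was -1.18, a level 55.9% below vehicle, within a range from -1.55 for CENPF to -0.46 for CENPN, and the median of all genes was -0.054. Separation was complete in 55 members, with every DOX sample below every vehicle sample, against 17.6% of all genes. Only AURKB, UBE2C and ASPM overlapped, each because DOX 1 lay above the lowest vehicle sample. Within the sides of the first principal component the median was -1.44 on the vehicle 1 side and -0.74 on the other, with ranges from -1.95 to -0.44 and from -1.18 to -0.28, so that all 58 members were below 0 on each side. Leaving out DOX 1 gave 58 calls, leaving out DOX 2 or DOX 3 gave 0 calls in edgeR, although 48 and 49 members then kept an unadjusted p below 0.05, and no run without 1 of these samples turned a member's direction.

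**Figure D2:**
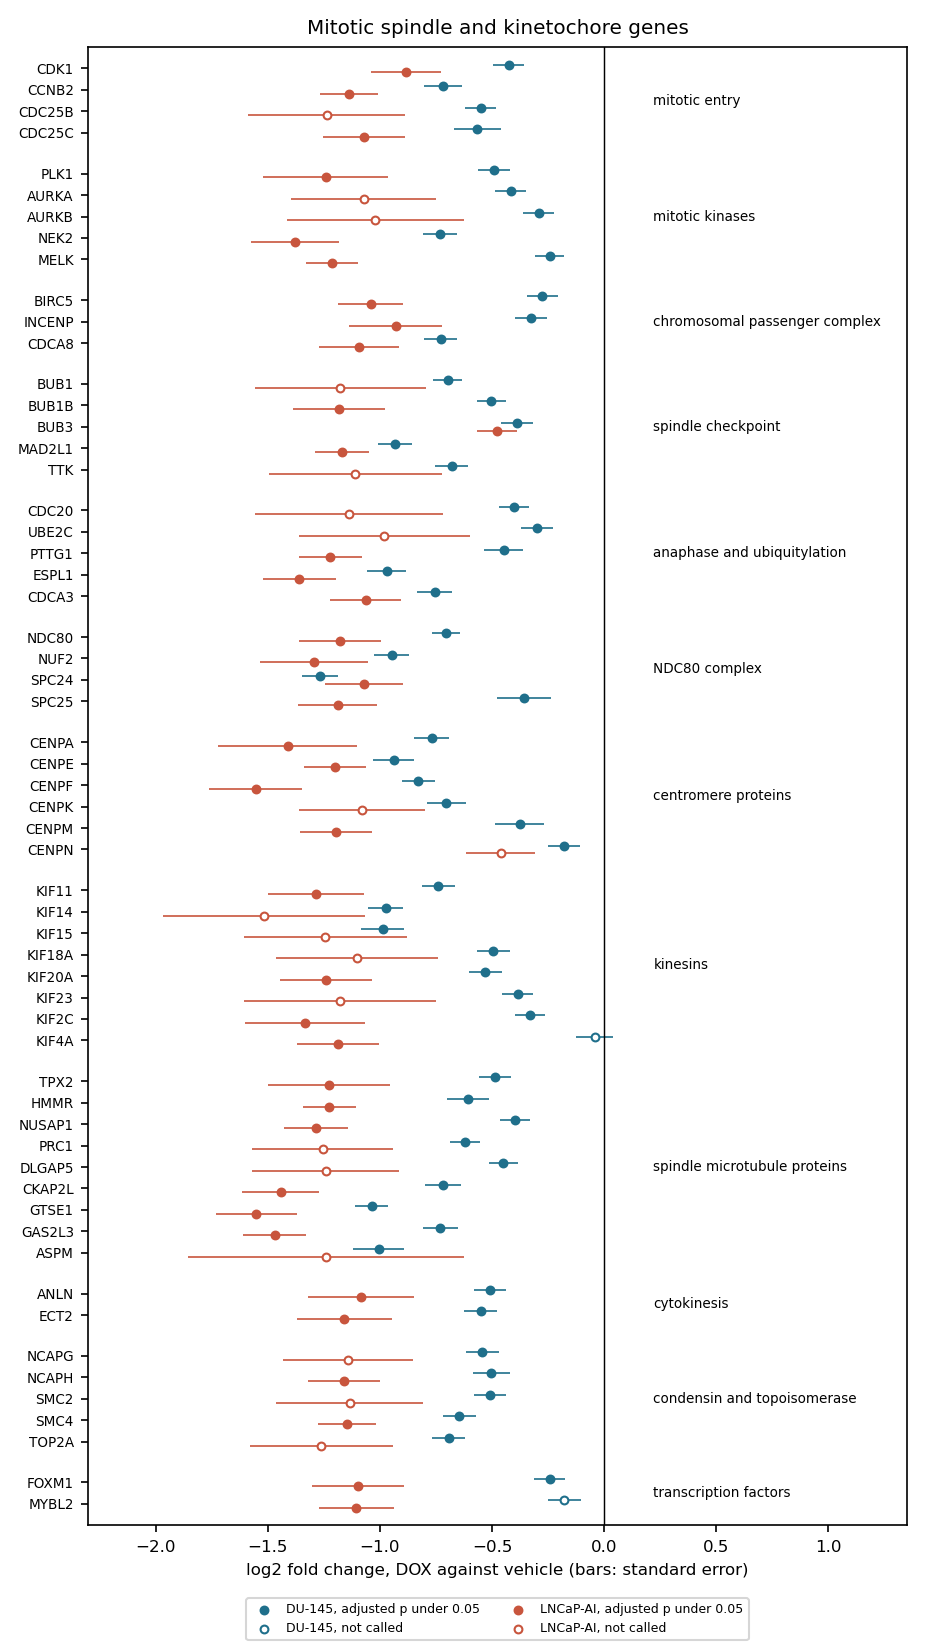
Log2 fold change of each of the 58 members with DOX against vehicle in DU-145 (blue) and LNCaP-AI cells (red), grouped by role, with bars for the SE (n = 3 per group) and open symbols for members not called. All points lie at or below -0.042, and the LNCaP-AI bars are wider than those of DU-145 for most members.

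The share of all counts that came from the 58 members shows the same values per library. In DU-145 cells it was 1.25%, 1.20% and 1.23% with vehicle and 0.815%, 0.812% and 0.806% with DOX (means 1.23% ± 0.0246 and 0.811% ± 0.00449, SD, n = 3). In LNCaP-AI cells it was 0.895%, 0.931% and 0.907% with vehicle (0.911% ± 0.0187) and 0.532%, 0.341% and 0.338% with DOX (0.404% ± 0.111). The 3 DU-145 DOX samples lay close together. In LNCaP-AI cells DOX 1 stood above DOX 2 and DOX 3, and this order held in 55 of 58 members. The median coefficient of variation of the members was 5.34% and 5.08% in DU-145 vehicle and DOX samples, and 9.85% and 27.8% in LNCaP-AI vehicle and DOX samples.

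**Figure D3:**
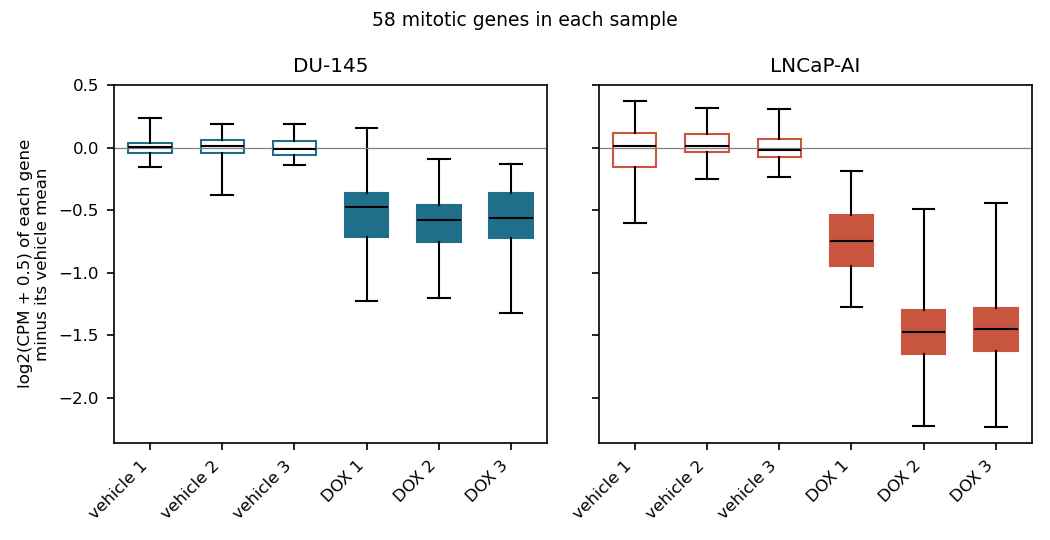
Level of the 58 members in each sample, as log2(CPM + 0.5) minus the gene's mean in the vehicle samples of its line (boxes, quartiles; line, median; whiskers, full range). Median values of the DU-145 DOX samples lie between -0.58 and -0.47, whereas LNCaP-AI DOX 1 lies at -0.75 and DOX 2 and DOX 3 at -1.47 and -1.45.

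The 4 members that act at mitotic entry were all lower in DU-145 cells, and 3 of the 4 were lower in LNCaP-AI cells. CCNB2, a B-type cyclin that activates CDK1, was at 154, 188 and 157 CPM with vehicle and 104, 91.9 and 107 CPM with DOX in DU-145 cells (log2 fold change -0.72, SE 0.083, adjusted p = 7.57e-07). Its LNCaP-AI samples were at 142, 134 and 114 CPM with vehicle and 66.9, 57.3 and 53.1 CPM with DOX (log2 fold change -1.14, SE 0.13, adjusted p = 0.0123). The groups did not overlap in either line, and the LNCaP-AI values within sides were -1.36 on the vehicle 1 side and -0.88 on the other side. CDC25C, a phosphatase that removes inhibitory phosphates from CDK1, was at 23.1, 22.9 and 23.3 CPM with vehicle and 13.9, 9.12 and 9.82 CPM with DOX in LNCaP-AI cells (log2 fold change -1.07, SE 0.18, adjusted p = 0.0213), and its DU-145 log2 fold change was -0.56 (adjusted p = 0.000153). CDC25B, a related phosphatase, was lower in DU-145 cells (log2 fold change -0.55, SE 0.069, adjusted p = 2.11e-06) but was not called in LNCaP-AI cells, where DOX 1 held 62.1 CPM and DOX 2 and DOX 3 held 29.4 and 25.8 CPM (log2 fold change -1.24, SE 0.35, adjusted p = 0.0705). CDK1 itself was called lower in both lines.

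All 5 mitotic kinases were lower in DU-145 cells and 3 of them in LNCaP-AI cells. PLK1, which acts in centrosome maturation and spindle assembly, was at 159.9, 171 and 183 CPM in the LNCaP-AI vehicle samples and 107, 53.9 and 56.5 CPM with DOX (log2 fold change -1.24, SE 0.28, adjusted p = 0.0397). Its DU-145 log2 fold change was -0.49 (adjusted p = 1.37e-05). DOX 1 again lay closest to the vehicle samples in LNCaP-AI cells. NEK2, a kinase that separates centrosomes, was at 82.5, 87.7 and 89.96 CPM with vehicle and 53.7, 47.9 and 55.3 CPM with DOX in DU-145 cells (log2 fold change -0.73, SE 0.076, adjusted p = 1.9e-07), and at 78.3, 78.5 and 69.8 CPM with vehicle and 37.99, 24.9 and 24.1 CPM with DOX in LNCaP-AI cells (log2 fold change -1.38, SE 0.20, adjusted p = 0.0153). AURKA, the spindle pole kinase that the study lists among neuroendocrine markers, was at 247, 272 and 244 CPM with vehicle and 197, 185 and 189.5 CPM with DOX in DU-145 cells (log2 fold change -0.42, SE 0.069, adjusted p = 4.8e-05). In LNCaP-AI cells AURKA held 138, 193 and 179 CPM with vehicle and 124, 60.4 and 58.5 CPM with DOX, a difference that did not pass the test (log2 fold change -1.07, SE 0.33, adjusted p = 0.0824). The AURKA groups did not overlap in either line, and the LNCaP-AI values within sides were -1.21 on the vehicle 1 side and -0.59 on the other side. By qRT-PCR the study reported lower AURKA mRNA in LNCaP-AI cells, against DOX-treated control shRNA cells, a reference not used here. It also reported lower AURKA protein in LNCaP-AI tumours of mice fed DOX. MELK, a kinase abundant in proliferating cells, was at 264, 267 and 253 CPM with vehicle and 221, 216 and 226 CPM with DOX in DU-145 cells and at 146, 137 and 113 CPM with vehicle and 59.6, 54.6 and 56.2 CPM with DOX in LNCaP-AI cells, so that its 3 LNCaP-AI DOX samples lay close together.

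The chromosomal passenger complex, which places Aurora B at centromeres and corrects faulty attachments, had all 3 of its non-kinase members in the list lower in both lines. CDCA8 (borealin) was at 100.1, 108 and 93.6 CPM with vehicle and 61.6, 60.4 and 60.1 CPM with DOX in DU-145 cells (log2 fold change -0.73, SE 0.073, adjusted p = 1.2e-07), and at 112, 105 and 106 CPM with vehicle and 64.9, 44.1 and 42.2 CPM with DOX in LNCaP-AI cells (log2 fold change -1.09, SE 0.18, adjusted p = 0.0192). BIRC5 (survivin) was at 242, 237 and 233 CPM with vehicle and 142, 98.7 and 106 CPM with DOX in LNCaP-AI cells (log2 fold change -1.04, SE 0.14, adjusted p = 0.0148). Its decrease in DU-145 cells was smaller (log2 fold change -0.28, SE 0.068, adjusted p = 0.00216), a difference tested below. INCENP, the scaffold of the complex, was lower in DU-145 (log2 fold change -0.33, SE 0.073, adjusted p = 0.00108) and in LNCaP-AI cells (log2 fold change -0.93, SE 0.21, adjusted p = 0.0382). The kinase of the complex, AURKB, was called lower in DU-145 cells (log2 fold change -0.29, SE 0.069, adjusted p = 0.00165) and was not called in LNCaP-AI cells (log2 fold change -1.02, SE 0.39, adjusted p = 0.14).

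Spindle checkpoint members were lower in 5 of 5 cases in DU-145 cells and in 3 of 5 in LNCaP-AI cells. MAD2L1, which binds CDC20 and holds back the anaphase-promoting complex, was at 101, 95.97 and 102 CPM with vehicle and 56.9, 51.4 and 48.4 CPM with DOX in DU-145 cells (log2 fold change -0.93, SE 0.075, adjusted p = 6.53e-09). In LNCaP-AI cells it was at 113, 102 and 87.6 CPM with vehicle and 47.96, 42.1 and 44.4 CPM with DOX (log2 fold change -1.17, SE 0.12, adjusted p = 0.0123), and here DOX 1 lay close to the other DOX samples. BUB1, a kinetochore kinase of the checkpoint, showed the opposite arrangement. Its LNCaP-AI samples were at 104, 140.3 and 124 CPM with vehicle and 88.9, 34.8 and 38.73 CPM with DOX, which did not pass the test (log2 fold change -1.18, SE 0.38, adjusted p = 0.0961), and its DU-145 log2 fold change was -0.70 (adjusted p = 4.04e-08). BUB1B (BubR1) was at 172, 173 and 166 CPM with vehicle and 101, 61.6 and 62.5 CPM with DOX in LNCaP-AI cells (log2 fold change -1.18, SE 0.20, adjusted p = 0.0217). BUB3 had the second smallest LNCaP-AI change of the 58 members (log2 fold change -0.48, SE 0.089, adjusted p = 0.0252), and TTK was called in DU-145 cells alone.

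Of the 5 anaphase and ubiquitylation members, all were lower in DU-145 cells and 3 in LNCaP-AI cells. ESPL1 (separase), the protease that cleaves cohesin, was at 62.4, 64.8 and 60.4 CPM with vehicle and 27.7, 34.8 and 32.9 CPM with DOX in DU-145 cells (log2 fold change -0.97, SE 0.085, adjusted p = 2.19e-08), and at 63.9, 57.2 and 66.9 CPM with vehicle and 30.1, 22.4 and 20.7 CPM with DOX in LNCaP-AI cells (log2 fold change -1.36, SE 0.16, adjusted p = 0.0123). PTTG1 (securin), its inhibitor, was at 159, 187 and 148 CPM with vehicle and 123, 109 and 130.5 CPM with DOX in DU-145 cells (log2 fold change -0.45, SE 0.086, adjusted p = 0.000229) and at 159, 147 and 132 CPM with vehicle and 74.5, 57.8 and 55.6 CPM with DOX in LNCaP-AI cells (log2 fold change -1.22, SE 0.14, adjusted p = 0.0123). The protease and its inhibitor were thus both lower, with no overlap between groups in either line. CDCA3, which promotes degradation of the CDK1 inhibitor WEE1, was lower in DU-145 cells (-0.76, adjusted p = 1.9e-07) and in LNCaP-AI cells (-1.06, adjusted p = 0.0162, log2 scale). CDC20 and UBE2C, an activator and a ubiquitin-conjugating enzyme of the anaphase-promoting complex, were not called in LNCaP-AI cells, where their log2 fold changes were -1.14 and -0.98.

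The NDC80 complex, the rod that links the kinetochore to the microtubule, had all 4 subunits lower in both lines. SPC24 had the largest decrease of all members in DU-145 cells, from 49.3, 49.6 and 50.7 CPM with vehicle to 21.02, 21.4 and 19.7 CPM with DOX (log2 fold change -1.27, SE 0.081, adjusted p = 2.99e-10). In LNCaP-AI cells SPC24 was at 130.4, 84.98 and 91.7 CPM with vehicle and 46.8, 49.6 and 49.6 CPM with DOX (log2 fold change -1.07, SE 0.17, adjusted p = 0.0186), with the 3 DOX samples nearly equal and vehicle 1 highest. SPC25, its direct partner, was at 13.3, 11.7 and 11.7 CPM with vehicle and 9.48, 9.63 and 9.63 CPM with DOX in DU-145 cells (log2 fold change -0.36, SE 0.12, adjusted p = 0.0183), and at 14.5, 13.4 and 13.1 CPM with vehicle and 7.32, 5.28 and 5.32 CPM with DOX in LNCaP-AI cells (log2 fold change -1.19, SE 0.17, adjusted p = 0.016). NDC80 was lower in DU-145 (log2 fold change -0.70, SE 0.064, adjusted p = 3.25e-08) and LNCaP-AI cells (log2 fold change -1.18, SE 0.18, adjusted p = 0.0179). NUF2, the partner of NDC80 in the complex, was at 84.9, 88.6 and 96.3 CPM with vehicle and 42.5, 47.2 and 50.1 CPM with DOX in DU-145 cells (log2 fold change -0.95, SE 0.079, adjusted p = 1.08e-08). Within the complex the DU-145 log2 fold changes thus spanned -1.27 to -0.36, whereas those of LNCaP-AI cells spanned -1.29 to -1.07.

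Among 6 centromere proteins, all were lower in DU-145 cells and 4 in LNCaP-AI cells. CENPF, a large protein of the outer kinetochore, was at 566, 535 and 510.4 CPM with vehicle and 314, 313 and 281 CPM with DOX in DU-145 cells (log2 fold change -0.83, SE 0.073, adjusted p = 2.2e-08). It had the largest LNCaP-AI decrease of the 58 members, with 462, 396 and 394 CPM with vehicle and 187, 127 and 112 CPM with DOX (log2 fold change -1.55, SE 0.21, adjusted p = 0.0141) and within-side values of -1.95 on the vehicle 1 side and -1.08 on the other side. CENPE, the kinesin that carries chromosomes to the spindle equator, was at 196, 163 and 171 CPM with vehicle and 89.4, 66.3 and 74.6 CPM with DOX in LNCaP-AI cells (log2 fold change -1.20, SE 0.14, adjusted p = 0.0123), and its DU-145 log2 fold change was -0.94 (adjusted p = 9.62e-08). CENPA, the histone H3 variant that marks the centromere, was called lower in both lines. CENPM, a subunit of the inner kinetochore, was at 23.98, 18.98 and 19.7 CPM with vehicle and 10.3, 9.004 and 7.98 CPM with DOX in LNCaP-AI cells (log2 fold change -1.20, SE 0.16, adjusted p = 0.0141). CENPN had the smallest LNCaP-AI change of all members and was not called there (log2 fold change -0.46, SE 0.15, adjusted p = 0.104).

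Of the 8 kinesins, motor proteins that move along microtubules, 7 were lower in DU-145 cells and 4 in LNCaP-AI cells. KIF11 (Eg5), which pushes the spindle poles apart, was at 301, 258 and 294 CPM with vehicle and 173, 174 and 165 CPM with DOX in DU-145 cells (log2 fold change -0.74, SE 0.072, adjusted p = 8.83e-08). KIF15, which can act beside KIF11 in holding the spindle bipolar, was at 29.2, 27.4 and 26.2 CPM with vehicle and 13.8, 14.4 and 13.6 CPM with DOX in DU-145 cells (log2 fold change -0.99, SE 0.096, adjusted p = 8.02e-08), and KIF14, which acts in cytokinesis, was at 149.9, 137 and 159 CPM with vehicle and 74.8, 81.98 and 69.9 CPM with DOX (log2 fold change -0.97, SE 0.078, adjusted p = 5.79e-09). These were among the largest DU-145 decreases. In LNCaP-AI cells KIF14 and KIF15 were not called (adjusted p = 0.0782 and 0.0758), with KIF14 at 73.5, 102 and 89.9 CPM with vehicle and 54.4, 19.9 and 18.3 CPM with DOX. KIF11 was called there, at 184, 189 and 174 CPM with vehicle and 101, 61.5 and 61.4 CPM with DOX (log2 fold change -1.29, SE 0.21, adjusted p = 0.0196). KIF4A, a chromosome-bound kinesin, differed from the other kinesins in DU-145 cells in that its groups overlapped, at 102, 100.3 and 93.4 CPM with vehicle and 109.5, 91.8 and 85.8 CPM with DOX (log2 fold change -0.042, SE 0.083, adjusted p = 0.701). In LNCaP-AI cells it was at 133, 143 and 138 CPM with vehicle and 78.6, 52.7 and 50.3 CPM with DOX (log2 fold change -1.19, SE 0.18, adjusted p = 0.0174), with every DOX sample lower.

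Spindle microtubule proteins were lower in 9 of 9 cases in DU-145 cells and in 6 of 9 in LNCaP-AI cells. GTSE1, a microtubule plus-end protein, was at 66.8, 65.2 and 65 CPM with vehicle and 33.6, 31.2 and 31.2 CPM with DOX in DU-145 cells (log2 fold change -1.04, SE 0.075, adjusted p = 1.42e-09), and at 82.9, 57.8 and 68.8 CPM with vehicle and 28.5, 21.6 and 21.4 CPM with DOX in LNCaP-AI cells (log2 fold change -1.55, SE 0.18, adjusted p = 0.0123). PRC1, which bundles the microtubules of the central spindle, was called in DU-145 cells (log2 fold change -0.62, SE 0.066, adjusted p = 2.74e-07) and narrowly missed the threshold in LNCaP-AI cells (log2 fold change -1.26, SE 0.31, adjusted p = 0.0514). HMMR, a spindle-associated protein that also binds hyaluronan, was at 216, 223 and 195 CPM with vehicle and 104, 80.6 and 86.99 CPM with DOX in LNCaP-AI cells (log2 fold change -1.23, SE 0.12, adjusted p = 0.0123). GAS2L3, which links actin and microtubules, was at 58.3, 51.9 and 59.8 CPM with vehicle and 34.3, 33.03 and 35.4 CPM with DOX in DU-145 cells (log2 fold change -0.73, SE 0.08, adjusted p = 3.77e-07) and at 40.3, 34.7 and 31.7 CPM with vehicle and 14.4, 11.7 and 12.5 CPM with DOX in LNCaP-AI cells (log2 fold change -1.47, SE 0.14, adjusted p = 0.0123). NUSAP1, a microtubule-bundling protein, was at 347, 304 and 286 CPM with vehicle and 152, 117 and 115 CPM with DOX in LNCaP-AI cells (log2 fold change -1.28, SE 0.14, adjusted p = 0.0123). For GAS2L3 and NUSAP1 no DOX sample approached the vehicle range. ASPM, a spindle pole protein, had the widest LNCaP-AI spread of all members, from 103, 196 and 192 CPM with vehicle to 138, 33.4 and 36.1 CPM with DOX (log2 fold change -1.24, SE 0.62, adjusted p = 0.231).

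ANLN and ECT2, which act in the contractile ring and activate RhoA at cytokinesis, were lower in both lines. ANLN was at 635, 638 and 621 CPM with vehicle and 471, 424 and 436 CPM with DOX in DU-145 cells (log2 fold change -0.51, SE 0.07, adjusted p = 6.49e-06), and ECT2 was at 285, 284 and 275 CPM with vehicle and 171, 102 and 105 CPM with DOX in LNCaP-AI cells (log2 fold change -1.16, SE 0.21, adjusted p = 0.0242). Of the 5 condensin and topoisomerase members, all were lower in DU-145 cells and SMC4 and NCAPH were lower in LNCaP-AI cells. TOP2A, which untangles sister chromatids, was at 1386, 1328 and 1407 CPM with vehicle and 886, 835 and 828 CPM with DOX in DU-145 cells (log2 fold change -0.69, SE 0.074, adjusted p = 2.71e-07). Its LNCaP-AI values were 442, 562 and 516 CPM with vehicle and 324, 157 and 152 CPM with DOX, which did not overlap and did not pass the test (log2 fold change -1.26, SE 0.32, adjusted p = 0.0527). SMC4, a core condensin subunit, was at 424, 411 and 394 CPM with vehicle and 220.3, 166 and 168 CPM with DOX in LNCaP-AI cells (log2 fold change -1.15, SE 0.13, adjusted p = 0.0123). NCAPH, a condensin I subunit, was lower in both lines (log2 fold change -0.50 in DU-145 and -1.16 in LNCaP-AI cells).

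FOXM1 and MYBL2, the transcription factors known to drive this gene programme, had smaller DU-145 log2 fold changes than the members' median. FOXM1 was at 148, 152 and 138 CPM with vehicle and 127, 126 and 118 CPM with DOX in DU-145 cells (log2 fold change -0.24, SE 0.069, adjusted p = 0.00599), and MYBL2 was at 214, 224 and 192 CPM with vehicle and 187, 197 and 172 CPM with DOX, which overlapped and was not called (log2 fold change -0.18, SE 0.074, adjusted p = 0.0512). In LNCaP-AI cells FOXM1 was at 278, 232 and 283 CPM with vehicle and 163, 105 and 103 CPM with DOX (log2 fold change -1.10, SE 0.20, adjusted p = 0.0251), and MYBL2 was at 357, 276 and 337 CPM with vehicle and 183, 137 and 131 CPM with DOX (log2 fold change -1.11, SE 0.17, adjusted p = 0.0168). Both were called lower there with no overlap between groups.

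Combining the lines, 37 members were lower in both, 19 in DU-145 cells alone and 2, KIF4A and MYBL2, in LNCaP-AI cells alone. The number called in neither was 0. Among all genes tested, 25.3% were called lower in DU-145 and 5.52% in LNCaP-AI cells. The share of all genes lower in both lines was not computed. The tally of members rests on the LNCaP-AI fit, since DESeq2 called 57 members in that line and a fit with a term for the PC1 side called 58. That side was itself taken from the same counts, so the 58 calls are not an independent check. A call in only 1 line does not show that the lines differ. The 19 members not called in LNCaP-AI cells had a median log2 fold change of -1.14, close to the -1.19 of the 39 called members, but a larger median SE of 0.36 against 0.175. In all 19, vehicle 1 was the lowest of the 3 vehicle samples, which was so in 5 of the 39 called members. These 19 include AURKA, AURKB, BUB1, TTK, CDC20, UBE2C, KIF14, KIF23, ASPM and TOP2A, and their adjusted p ran from 0.0514 to 0.231.

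The difference between lines was tested as an interaction term fitted to the 12 samples, as the LNCaP-AI minus the DU-145 log2 fold change. The value was below 0, that is a larger decrease in LNCaP-AI cells, in 57 of 58 members, and the median of the 58 was -0.59. SPC24 was the exception (0.23, SE 0.18) and was not called (adjusted p = 0.465). Of all 16800 genes tested, 8707 had a value below 0, and the median of all genes was -0.023. The test called 10 members, all below 0, against 3.76% of all genes called below 0 and 5.43% called above 0. KIF4A had the largest called difference (-1.11, SE 0.22, adjusted p = 0.0127), followed by MELK (-0.93, SE 0.12, adjusted p = 0.00173) and MYBL2 (-0.89, SE 0.19, adjusted p = 0.0185). FOXM1 was also among them (-0.82, SE 0.22, adjusted p = 0.0456), so that both transcription factors differed between lines. The remaining 6 were NUSAP1, SPC25, CENPM, PTTG1, BIRC5 and GAS2L3, between -0.85 and -0.71. The count of 10 rose to 52 without LNCaP-AI DOX 1 and fell to 5 and 3 without DOX 2 and DOX 3.

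**Figure D4:**
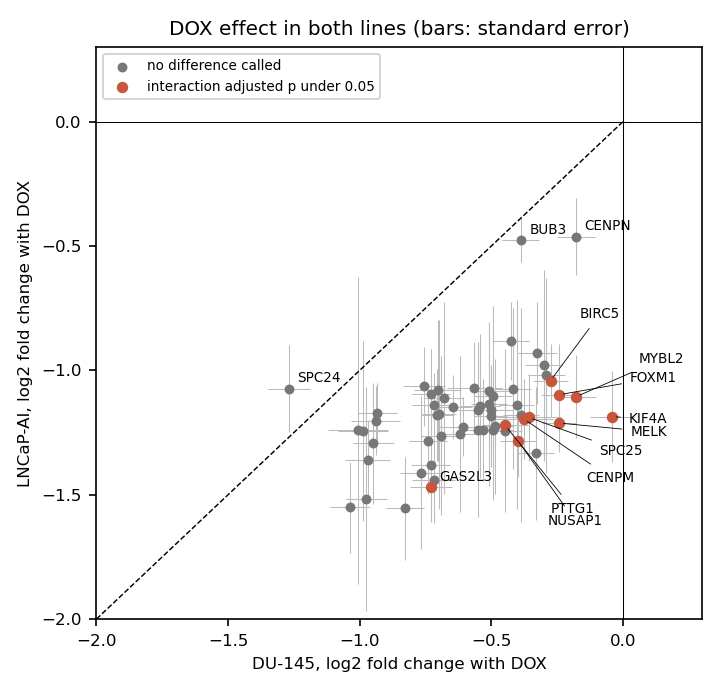
Log2 fold change with DOX in DU-145 (horizontal) and LNCaP-AI cells (vertical) for each of the 58 members, with bars for the SE and the dashed line marking equal change. All members but SPC24 lie below the line, and the 10 with a called interaction (red) include KIF4A, MELK, MYBL2 and FOXM1.

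With vehicle, the members also differed between the lines. Of 58, 38 were higher and 7 lower in DU-145 than in LNCaP-AI cells, with a median log2 difference (DU-145 minus LNCaP-AI) of 0.50. Of all 15628 genes tested, 30.2% were called higher in DU-145 cells and 35.0% lower, and their median was -0.061. The largest differences were those of KIF23, a kinesin of the central spindle (log2 difference 1.66, SE 0.15, adjusted p = 9.61e-05), TOP2A (log2 difference 1.66, SE 0.12, adjusted p = 3.05e-05) and ANLN (log2 difference 1.48, SE 0.093, adjusted p = 2.04e-05). Higher in LNCaP-AI cells were CDK1 (-0.78), SPC24 (-0.81), FOXM1 (-0.63), NCAPH (-0.44), MYBL2 (-0.40), KIF2C (-0.29) and KIF4A (-0.27, log2 differences). PLK1, HMMR, INCENP, SPC25, CENPM and MAD2L1 were among the 13 not called.

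Per length of exon, member levels in DU-145 vehicle samples ran from 5.55 ± 0.343 CPM per kb for KIF15 to 229 ± 6.7 for TOP2A (mean ± SD, n = 3), with TPX2 at 160.0 ± 5.53 and CDC20 at 125 ± 7.1 next below TOP2A. In LNCaP-AI vehicle samples CDC20 (112 ± 22.6), MYBL2 (109 ± 13.2), CDK1 (97.1 ± 19.2) and TPX2 (95.1 ± 6.51) were highest and did not differ beyond their spread, while TOP2A was at 74.4 ± 9.8. KIF15 was lowest in all 4 groups. With DOX, the level of TOP2A was 141 ± 5.26 in DU-145 and 31.5 ± 14.6 in LNCaP-AI cells.

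**Figure D5:**
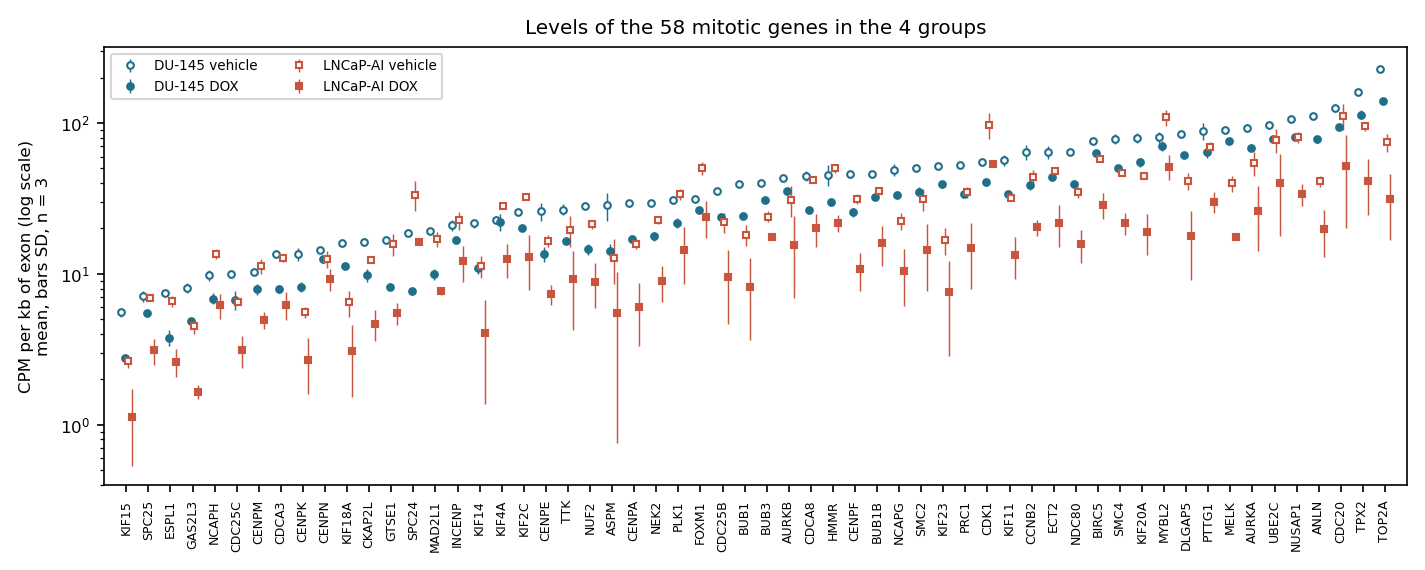
Level of each member in CPM per kb of exon (log axis, mean with SD, n = 3) in the 4 groups, ordered by the DU-145 vehicle level. KIF15 is lowest and TOP2A highest in DU-145 vehicle samples, and MYBL2, FOXM1, CDK1 and SPC24 stand out as members whose LNCaP-AI vehicle level (open squares) exceeds that of DU-145.

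Other genes of mitosis, in 4 lists of 100 genes in all, had medians below 0 but smaller than those of the members, and not all moved the same way. Of 99 tested, 61 were lower and 8 higher with DOX in DU-145 cells (median log2 fold change -0.28), where 21 had a positive value, and 55 were lower and 0 higher in LNCaP-AI cells (median -0.73), where 95 had a negative value. Calls over all genes tested came to 25.3% lower and 26.3% higher in DU-145 cells, and 5.52% and 7.22% in LNCaP-AI cells. Among kinetochore genes, 23 of 32 were lower in DU-145 and 19 of 32 in LNCaP-AI cells, including KNL1, the scaffold that joins the checkpoint to the NDC80 complex (log2 fold changes -1.10 and -1.54, adjusted p = 1.04e-09 and 0.0123). Among spindle genes, 20 of 28 and 19 of 28 were lower, with PSRC1 (log2 fold changes -1.52 and -1.32, adjusted p = 1.03e-09 and 0.0143) and FAM83D lower in both lines (-0.91 and -1.35). Mitotic regulators were lower in 11 and 10 of 24 cases, with 4 higher in DU-145 cells (medians -0.11 and -0.48), among them CCNB1 (-0.64 and -0.999, adjusted p = 8.47e-07 and 0.0171) and CCNA2 (-1.04 and -1.28, adjusted p = 6.7e-10 and 0.0409). The 8 that were higher in DU-145 cells included the anaphase-promoting complex subunits CDC23 (0.51) and ANAPC10 (0.44) and the kinetochore subunit CENPX (0.69). Other subunits of the anaphase-promoting complex were called lower there, namely ANAPC13 (-0.79), ANAPC4 (-0.61), CDC27 (-0.48) and ANAPC7 (-0.33). Of 15 cohesin and condensin genes, 7 were lower in each line, and NCAPD3 was higher in DU-145 (0.17, adjusted p = 0.0344) and lower in LNCaP-AI cells (-0.61, adjusted p = 0.0224).

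A list of replication genes, for origin licensing and DNA synthesis, was set beside the members. In DU-145 cells 20 of 41 were lower and 5 higher, with a median log2 fold change of -0.16 against -0.55 for the mitotic members. In LNCaP-AI cells 21 of 41 were lower and 0 higher, with a median of -0.76 against -1.18. MCM10, which acts at the start of DNA unwinding, was lower in both lines (-0.54, adjusted p = 3.13e-06, and -1.18, adjusted p = 0.0132), and ORC3, an origin recognition subunit, was higher in DU-145 cells (0.92, adjusted p = 3.61e-09). These medians are descriptions and their difference was not tested.

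Members with and without the letters TTTGAA in their promoter window had similar median changes. In DU-145 cells the median log2 fold change was -0.61 for the 36 members with TTTGAA and -0.54 for the 14 without, and in LNCaP-AI cells the medians were -1.19 and -1.21. At the ends of the DU-145 range, KIF4A (-0.042) held a TTTGAA close to its start and SPC24 (-1.27) was among the 14 without one. Only these exact letters were searched, so the 14 are not shown to lack a CHR. A link between the motif and the change was not tested.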

How the data were processed

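RNA-seq was measured in 12 samples (DU-145 and LNCaP-AI cells, vehicle or DOX, n = 3 each). The authors prepared stranded mRNA libraries and deposited raw counts per gene. Tools named in the submitters' processing notes are CASAVA 1.8.2, STAR 2.7.0 and DESeq2 1.24.0, with build GRCh38.p7; the counting tool and strand setting are not given in the sources used here.

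Counts were tested with edgeR 4.0.16 (TMM, quasi-likelihood test, at least 10 counts in at least 3 samples), with Benjamini-Hochberg adjustment over all genes and calls at an adjusted p below 0.05. The DOX effect was fitted within each line, the interaction over all 12 samples and the vehicle comparison over the vehicle samples. SEs are the fold change divided by the square root of F. CPM values are TMM-normalized, and CPM per kb divides them by exon length in GENCODE. Within-side values are differences of mean log2(CPM + 0.5). Steps were tested on simulated data.

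Members and lists were chosen with earlier results of these data known. The study describes triplicate cultures, so p-values measure the spread between these samples. All replicate pairs differed by more than counting noise. Values are given for MUC1, AURKA, the 2 members of each role with the smallest adjusted p in each line, and members with a called interaction, and other members were named after their values were seen. From each other list, genes came from the 3 smallest adjusted p in each direction. The anaphase-promoting complex subunits ANAPC4, CDC27 and ANAPC7 were added to these after their values were seen. A level of 3 counts is the floor, for counting error only. DESeq2 1.42.0, other normalizations and filters, a replicate block and leaving out samples were the alternatives. 1 luminal marker is not reported here.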

Additional observations from a re-analysis of the deposited data

Results flagged for a closer look

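The DOX effect differed between the lines in 10 members by the interaction test of edgeR, each with a larger decrease in LNCaP-AI than in DU-145 cells. The differences (LNCaP-AI minus DU-145, log2) were -0.93, SE 0.12, adjusted p = 0.00173 for MELK and -0.85, SE 0.15, adjusted p = 0.00792 for NUSAP1. KIF4A differed by -1.11, SE 0.22, adjusted p = 0.0127, and GAS2L3 by -0.71, SE 0.15, adjusted p = 0.0162. The transcription factors MYBL2 (-0.89, SE 0.19, adjusted p = 0.0185) and FOXM1 (-0.82, SE 0.22, adjusted p = 0.0456) were among them. BIRC5 differed by -0.73, SE 0.16, adjusted p = 0.0199 and CENPM by -0.78, SE 0.18, adjusted p = 0.023. SPC25 (-0.80, SE 0.20, adjusted p = 0.0314) and PTTG1 (-0.74, SE 0.18, adjusted p = 0.0319) completed the list. The LNCaP-AI samples divided on their first principal component as described above, and the part of this division in the 10 differences was not tested as a cause.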

How the results depend on the processing

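In DU-145 cells the 56 called members became 54 to 57 under DESeq2, other normalizations and filters, and 55 to 57 when 1 sample was left out, but 35 when all 12 samples shared a fit. In LNCaP-AI cells the 39 became 40 to 58 under DESeq2 (57), other normalizations and filters, a fit of all 12 samples and a fit with a term for the PC1 side (58). The PC1 side was taken from the same counts. Leaving out 1 LNCaP-AI sample gave 0 to 58, with 0 in edgeR without DOX 2 or DOX 3 (48 and 49 at an unadjusted p below 0.05) and 58 without DOX 1. The 10 interaction calls became 9 to 12 under other normalizations and filters, 19 with DESeq2 and 41 with a term for the side on PC1, an alternative chosen after seeing the data. Leaving out 1 sample gave 3 to 52 interaction calls: 52, 5 and 3 without LNCaP-AI DOX 1, DOX 2 and DOX 3, 4 without DU-145 vehicle 3, and 6 and 5 without DU-145 DOX 1 and DOX 3. The 45 differences between the lines with vehicle became 37 to 46. The cause of these changes was not tested. None of the called members followed through the refits, as described below, reversed. Members not called were not followed. Without DU-145 DOX 3, 57 members had a negative DU-145 log2 fold change, against 58 in the main fit. Negative interaction values fell from 57 to 56 with upper-quartile normalization, with the PC1 term and without LNCaP-AI vehicle 1. In that last refit, 9 interaction calls were lower and 1 was higher.

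With the replicate number as a block, 56 DU-145 members were called, 0 LNCaP-AI members in edgeR (51 at an unadjusted p below 0.05), 0 interactions (23 unadjusted) and 43 differences with vehicle. Samples with the same number correlated at -0.0912 to 0.127 in DU-145 and -0.94 to -0.812 in LNCaP-AI cells, and not every sample correlated best with its own number, so the numbers were not taken to pair the samples. Single called members were followed through the refits if picked by the naming rule above, which mostly takes the smallest adjusted p. For the vehicle comparison all called members were followed. These members stayed past the threshold in 470 refits and lost it in 11 in DU-145 cells and in 337 and 111 in LNCaP-AI cells. The counts were 139 and 51 for the interaction and 546 and 39 with vehicle.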

Other observations

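The MuvB and DREAM complexes, which repress mitotic genes in resting cells and, with MYBL2, activate them in dividing cells, had 12 genes tested. In DU-145 cells 6 were lower and 2 higher with DOX, and in LNCaP-AI cells 4 were lower and 1 higher, with median log2 fold changes of -0.22 and -0.51. Over all genes tested, 25.3% were called lower and 26.3% higher in DU-145 cells, and 5.52% and 7.22% in LNCaP-AI cells. The pocket protein RBL1 (p107) fell in DU-145 (-1.38, adjusted p = 1.17e-10) and in LNCaP-AI cells (-1.71, adjusted p = 0.0134). MYBL1 (A-MYB), a relative of MYBL2, fell as well (-1.37, adjusted p = 1.02e-09, and -1.17, adjusted p = 0.0159). TFDP2, an E2F partner, was higher in both lines (0.50, adjusted p = 3.88e-05, and 0.38, adjusted p = 0.0475). LIN54, the subunit that contacts the CHR, was called lower in LNCaP-AI cells (-0.99, adjusted p = 0.0123), and E2F4, which binds DREAM targets, was called lower in DU-145 cells (-0.63, adjusted p = 1.17e-06).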
